A study of Homo sapiens with 31 samples.

Results

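Circular RNAs of human H9 embryonic stem (ES) cells at day 0 were compared with those of the same line after 90 days of differentiation towards retina without added growth factor. H9 is a single established human ES cell line. The members are libraries, chosen by their labels: day 0 replicates 1 to 3 and untreated day 90 replicates 1 to 3, 6 of the 15 RNA-seq libraries in the series. Cultures were plated in triplicate. Day 0 cells were undifferentiated and received no treatment, and day 90 cultures had been differentiated and received no IGF-1, the growth factor added to other cultures of the series. The labels give embryonic stem cell as the cell type at both days and name no transgene or deletion. Day 90 cultures were harvested whole and hold a mixture of cells, so that fewer or more cells of a type and less or more RNA per cell cannot be told apart here.

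A circular RNA (circRNA) forms when the end of an exon is spliced back to the start of the same exon or of an exon upstream of it. The closed loop has no free ends, so exonucleases that degrade linear RNA do not digest it readily, and circRNAs can outlast the linear transcripts of their gene. They are known to be abundant in neural tissue and scarce in dividing cells. In RNA-seq data a circRNA is recognised by reads that cross the back-splice junction, where the end of a downstream donor exon is joined to the start of an upstream acceptor exon. Exon numbers of circRNAs given here count the exons of the annotated transcript from acceptor to donor. The inner exons were not observed, since the counted reads show the back-splice junction. The deposited values are raw counts of back-splice reads for each circRNA in each library. They were divided by the number of sequenced reads where libraries were compared, and are given as RPM (back-splice reads per 1000000 sequenced reads).

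Libraries had been sequenced to between 124825004 and 153237218 reads, with the mean of a pair of lines (116522226 and 160607052 reads) for day 90 replicates 1 and 2. They held 14992, 15116 and 17929 back-splice reads at day 0, and 42858, 74180 and 93433 at day 90, for replicates 1, 2 and 3. Day 90 replicate 1 stood apart from the other day 90 libraries, with a level 0.578 times that of the lower of them, and results are therefore given with and without it where that moves them. The read numbers of day 90 replicates 1 and 2 are listed on lines that do not tell them apart, so their mean, 138564639 reads, was used for both. With 116522226 reads for replicate 1, its level was 368 RPM against 462 RPM in replicate 2. With 160607052 reads it was 267 RPM against 637 RPM. Replicate 1 was the lowest day 90 library under either, but how far it stood apart depends on the assignment. RNA integrity numbers were 9.8 to 10 at day 0 and 7.1 to 8.9 at day 90 per the labels, so RNA quality and day cannot be told apart. Where a circRNA had no read in a group, its mean may still be as high as 0.00737 RPM (day 0) or 0.00697 RPM (day 90), the level of 3 reads over the group, by counting error alone. A fold given as "at least" sets the observed level of the other group against this limit. It leaves out the counting error of the observed reads, so the exact 95% bound can be lower. The p-values of single circRNAs and host genes rest on the spread between replicate cultures, estimated jointly over the 15 libraries, with groups outside this comparison among them. Those of library-level values rest on permuting the 6 libraries.

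All 3 day 90 libraries had higher circRNA levels than those of day 0. Back-splice reads came to 120, 106 and 128 RPM in day 0 replicates 1, 2 and 3. Day 90 replicates 1, 2 and 3 gave 309, 535 and 610 RPM. Day 0 averaged 118 ± 11 RPM and day 90 averaged 485 ± 156 RPM (SD, n = 3 in each group), a ratio of 4.11. The two-sided exact permutation test gave p = 0.1, the smallest that 3 libraries against 3 allow, and 0.2 after Benjamini-Hochberg adjustment over the 8 library-level values compared. Without day 90 replicate 1 the ratio was 4.85. Day 0 replicate 3 and day 90 replicate 3, a pair listed with like base quality, differed by 4.77 times. This is a single library of each day, and an effect of base quality on the totals was not tested.

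More distinct circRNAs were found at day 90, and the difference was smaller at an equal number of reads. A library held 6094 ± 623 distinct circRNAs at day 0 and 14728 ± 3190 at day 90 (SD, n = 3 each; exact permutation p = 0.1, adjusted 0.2). With every library reduced to the 14992 back-splice reads of the smallest, the expected numbers were 5730, 5710 and 6132 at day 0 and 6124, 6361 and 6324 at day 90. The groups then overlapped, and the ratio of the means was 1.07 in place of 2.42 (exact permutation p = 0.2, adjusted 0.267). Host genes with at least 1 back-splice read numbered 4244 at day 0 and 6072 at day 90, and 3825 of them had reads at both.

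**Figure D1:**
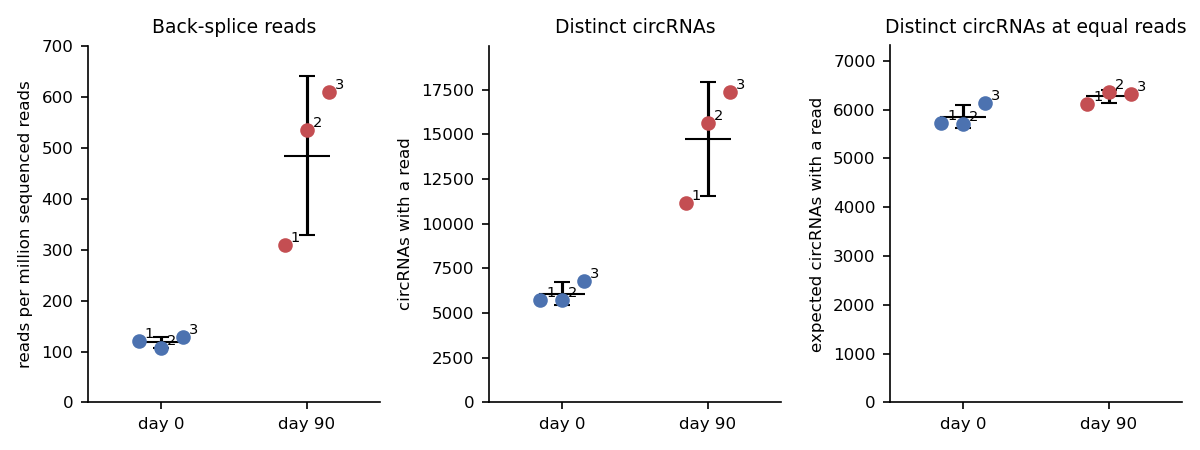
RPM of all back-splice reads, distinct circRNAs, and distinct circRNAs expected at 14992 reads, in each day 0 library (blue) and each untreated day 90 library (red). Numbers beside points are replicate numbers, bars are means and whiskers are SD (n = 3). Day 90 lies at 309 to 610 RPM and day 0 between 106 and 128, while the right panel has overlapping groups.

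In the 6 libraries 30408 circRNAs had at least 1 read. Of these, 27.8% were found at both days, 59.1% at day 90 alone and 13.1% at day 0 alone. Day 90 held 210471 back-splice reads and day 0 held 48037, so the shares follow depth as well as presence. The circRNAs seen at day 0 alone were rare: 2945 of 3969 had 1 read, and 10 had at least 10. By contrast, 779 circRNAs seen at day 90 alone had at least 10 reads. A core of 1428 circRNAs was found in all 6 libraries.

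Single circRNAs were tested with edgeR on the 12498 with at least 10 counts over the 15 libraries of the series. Of these, 2713 were higher at day 90 (21.7% of those tested) and 41 were lower (0.328%), at a Benjamini-Hochberg adjusted p under 0.05. Of the 2713, 1154 had no read at day 0. Reads of any group could bring a circRNA past the filter, and 11032 reached no more than 3 counts in any day 0 library. These could hardly be called lower, and those without a day 0 read could not, so the shares called higher and lower are not comparable. A fold change can be measured best for the 833 circRNAs with at least 10 day 0 reads, and 666 of these (80.0%) had a higher level at day 90. The median log2 change of the 833 was 1.20 (2.30 as a ratio), and the quartiles were 0.29 and 2.08. Among the 833, 362 were called higher and 37 lower. Of all tested circRNAs, 4044 had every day 90 library above every day 0 library and 106 had every day 90 library below. Without day 90 replicate 1, 3105 were called higher and 26 lower, and 25 of the 41 lower calls remained. In total 1703 were called without day 0 replicate 2, 1771 without day 90 replicate 3 and 2754 with all libraries. A fit of the 6 compared libraries alone called 2212.

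These counts refer to sequenced reads, and a scaling on the back-splice reads themselves asks instead how a circRNA moved against the other circRNAs. Relative to the fit on sequenced reads, the median log2 change of all tested circRNAs moved from 2.33 to 1.55 with TMM factors and to 1.07 with DESeq2 size factors. Most tested circRNAs had few day 0 counts. Over the 833 with at least 10 day 0 reads the median moved from 1.20 to -0.026 with TMM and to -0.53 with DESeq2 size factors. Calls were then 739 higher and 130 lower with TMM, and 360 higher and 194 lower with DESeq2 size factors. The share of calls that were higher was 98.5% on sequenced reads, 85.0% with TMM and 65.0% with DESeq2 size factors. All 41 lowered circRNAs were lower past the threshold under both scalings. Both lower the log2 changes in general, so such calls could hardly be lost and their number is no separate support. Of the 2713 raised ones, 6 had a log2 change below 0 with TMM and 93 with DESeq2 size factors, none of them past the threshold.

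**Figure D2:**
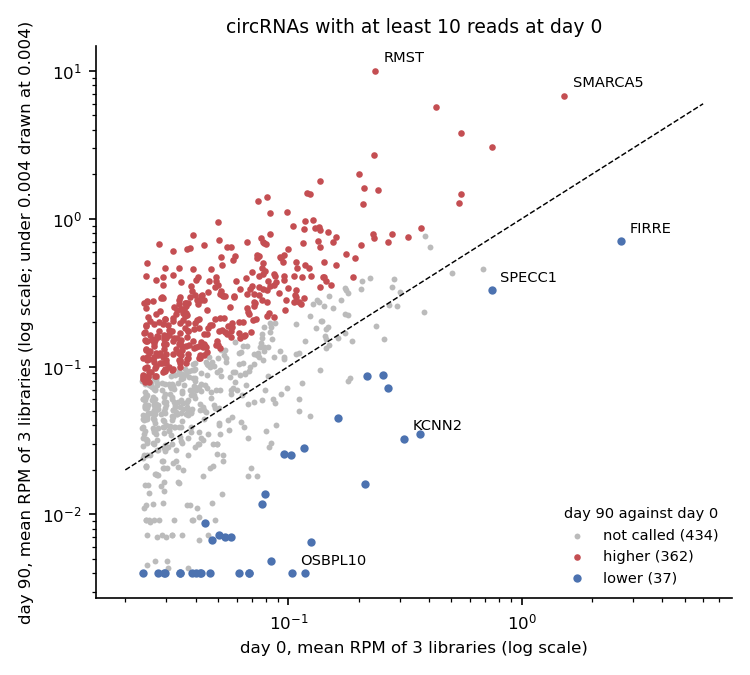
Mean RPM at day 90 against mean RPM at day 0 on log axes, for the 833 circRNAs with at least 10 reads at day 0. Red points (362) were called higher and blue points (37) lower by edgeR, grey points were not called, and the dashed line marks equal levels. Of the 833 points, 666 lie above equal levels, and the RMST and FIRRE circRNAs lie far to either side of the line.

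CircRNAs of the long non-coding RNA genes RMST and FIRRE moved in opposite directions. RMST is a long non-coding RNA known from neural differentiation, and FIRRE is transcribed from the X chromosome and is known for binding chromatin. Junction sequences are shown for the main RMST circRNA and for FIRRE circRNAs that share an acceptor, of which exon 6 to exon 5 was not called lower. They were read from GRCh37 (the same coordinates as hg19), 5' to 3'. The last 30 bases of the donor exon are in lower case and the first 30 of the acceptor exon in capitals.
RMST exon 12 to exon 6, chr12:97886239-97954825, plus strand: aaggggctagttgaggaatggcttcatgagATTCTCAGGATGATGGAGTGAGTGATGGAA
FIRRE exon 10 to exon 5, chrX:130883334-130928494, minus strand: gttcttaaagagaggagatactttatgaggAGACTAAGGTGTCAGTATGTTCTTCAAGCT
FIRRE exon 9 to exon 5, chrX:130889626-130928494, minus strand: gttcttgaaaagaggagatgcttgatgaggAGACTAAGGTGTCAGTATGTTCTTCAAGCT
FIRRE exon 6 to exon 5, chrX:130917915-130928494, minus strand: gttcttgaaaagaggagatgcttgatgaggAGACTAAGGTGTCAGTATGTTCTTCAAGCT
The 3 FIRRE junctions share the acceptor, and the exon 9 and exon 6 donors differ at 0 of the last 30 bases while the exon 10 donor differs from either at 4. Reads that do not reach beyond these bases cannot tell exon 9 from exon 6, so the split of counts between these FIRRE circRNAs is uncertain.

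The 7-exon RMST circRNA had 31, 36 and 29 reads in day 0 replicates 1, 2 and 3 and 556, 2056 and 1734 at day 90. Its level was 0.236 ± 0.0254 RPM at day 0 and 10.1 ± 5.52 RPM at day 90 (SD, n = 3 each), with no overlap and a ratio of 42.8. The log2 change was 5.41 (SE 0.48, edgeR adjusted p = 7.86e-26), the largest among called circRNAs with at least 10 day 0 reads and no overlap. It held 96.0% of RMST back-splice reads at day 0 and 97.5% at day 90. A 5-exon RMST circRNA from exon 10 to exon 6 had 0, 1 and 1 reads at day 0 and 12, 35 and 29 at day 90. Summed over its circRNAs, RMST had a log2 change of 5.39 (SE 0.43), which was 3.70 with TMM, 3.44 with DESeq2 size factors and 5.76 without day 90 replicate 1.

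FIRRE went the other way. Its exon numbers here are those of the annotation, and the study found unannotated exons within multiple FIRRE circRNAs. Its 6-exon circRNA from exon 10 to exon 5 had 380, 457 and 247 reads at day 0 and 51, 129 and 126 at day 90. All day 90 levels lay below all day 0 levels, at 0.707 ± 0.299 against 2.67 ± 0.793 RPM (SD, n = 3 each). The level was 3.74-fold lower, with a log2 change of -1.92 (SE 0.40, edgeR adjusted p = 4.26e-05). The 5-exon circRNA from exon 9 to exon 5 had 54, 61 and 33 reads at day 0 and 4, 7 and 4 at day 90. It was 10.4-fold lower (log2 change -3.35, SE 0.55, edgeR adjusted p = 8.71e-08). The circRNA from exon 7 to exon 6 was also called lower, with 13, 19 and 7 reads at day 0 against 1, 7 and 3, and the other 5 tested FIRRE circRNAs did not pass the test. Over all its circRNAs FIRRE took 2.93 ± 1.11% of back-splice reads at day 0 and 0.167 ± 0.0409% at day 90 (SD, n = 3 each), while RMST took 0.211 ± 0.0421% and 2.03 ± 0.766%.

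The circRNAs with the most reads in the 6 libraries were raised apart from FIRRE. The 2-exon circRNA of SMARCA5, a chromatin remodelling ATPase, had 209, 230 and 179 reads at day 0 and 630, 867 and 1476 at day 90 (log2 change 2.16, SE 0.40, edgeR adjusted p = 3.06e-06). Its host gene value was 0.54 with TMM (adjusted p = 0.0634), and SMARCA5 did not pass the test under that scaling. The single-exon circRNA of HIPK3, a protein kinase gene, had 128, 92 and 81 reads at day 0 and 236, 556 and 523 at day 90, a log2 change of 2.02. The 4-exon circRNA of MAN1A2, a Golgi mannosidase, went from 74, 61 and 37 reads to 579, 831 and 1062, a log2 change of 3.73. RERE and N4BP2L2 circRNAs had log2 changes of 3.54 and 3.71. A circRNA assigned to MSANTD3-TMEFF1 (log2 change 2.79) lies in a read-through gene that overlaps TMEFF1, and its host is uncertain. That of CAMSAP1, a microtubule minus-end protein gene, had 1.43, which turned to -0.30 with DESeq2 size factors.

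After RMST, the largest rises among circRNAs with at least 10 day 0 reads and no overlap between the groups belonged to genes of varied function. The circRNA of RHOBTB3 had 6, 4 and 1 reads at day 0 and 73, 110 and 110 at day 90 (log2 change 4.60, SE 0.53, edgeR adjusted p = 4.69e-15). Next came circRNAs of the Polycomb-related genes SFMBT2 (4.30) and PHC3 (4.28), and of STK39 (4.25), a kinase that regulates ion cotransporters. They were followed by a circRNA that matched both FAM228B and ENSG00000276087 (4.20), then GON4L (4.14), the 5-exon circRNA of MAN1A2 (4.10), GSK3B (4.06), a kinase of Wnt signalling, and LPAR1 (4.05), a lysophosphatidic acid receptor. In total 333 circRNAs met this rule.

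A further 859 called circRNAs had no read in any day 0 library and reads in every day 90 library. They could not have been called lower, so their number is a description. The most abundant was a 7-exon circRNA of ATRNL1, an attractin-like membrane protein gene.
ATRNL1 exon 8 to exon 2, chr10:116879949-116931050, plus strand: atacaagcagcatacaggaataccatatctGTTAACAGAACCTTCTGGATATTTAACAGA
It had 56, 118 and 125 reads at day 90, at least 94.3-fold higher than the limit that a count of 0 over day 0 allows. The single-exon circRNA of FMN1, a formin that nucleates actin, had 32, 87 and 77 reads and was at least 61.8-fold higher. Circular RNAs of the cyclic nucleotide phosphodiesterase genes PDE4B and PDE1C were at least 45.4-fold and 30.9-fold higher. Those of ZNF568 and VWA3A were at least 42.3-fold and 34.4-fold higher, and that of RELN, which encodes a secreted protein of neuronal migration, at least 25.6-fold. PRELID2, KLHL1 and SLCO5A1 followed at 24.3-fold, 24.0-fold and 23.0-fold or more. ATRNL1 was present at day 0 in other circRNAs, and its host gene total went from 15, 15 and 18 to 241, 522 and 612 reads (log2 change 4.74, SE 0.43).

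CircRNAs that fell were few, and 14 of the 41 had no read in any day 90 library. Groups did not overlap for 36 of the 41. The largest fitted fall was of a pair of circRNAs inside DIAPH2, a formin gene on the X chromosome, which share an acceptor.
DIAPH2 locus 3-exon circRNA, chrX:96603117-96684744, plus strand: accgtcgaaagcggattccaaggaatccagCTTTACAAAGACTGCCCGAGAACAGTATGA
DIAPH2 locus 2-exon circRNA, chrX:96603117-96639043, plus strand: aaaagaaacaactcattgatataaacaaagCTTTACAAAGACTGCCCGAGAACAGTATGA
The 3-exon form had 14, 18 and 16 reads at day 0 and 0 at day 90, at least 16.9-fold lower (edgeR adjusted p = 1.49e-06). The 2-exon form had 6, 16 and 6 reads and then 0, at least 9.86-fold lower. In cultures of the series outside this comparison, untreated day 45 had 0 reads of either form, and day 90 with IGF-1 had 2 of the 3-exon form and 0 of the 2-exon form. Their acceptor does not coincide with an exon start of GENCODE 44, so they were not counted towards the host gene. The DIAPH2 circRNAs that were counted had 1, 3 and 1 reads at day 0 and 2, 4 and 8 at day 90, which did not pass the test.

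Lowered circRNAs of USP44, POLR3G and DMC1 had few or no reads at day 90. USP44, a deubiquitinase gene expressed in ES cells, had a 2-exon circRNA with 8, 1 and 7 reads at day 0 and 0 at day 90, at least 5.64-fold lower. The 6-exon circRNA of POLR3G, an RNA polymerase III subunit expressed in ES cells, had 1, 7 and 2 reads and then 0, at least 3.52-fold lower, and its 4-exon circRNA had 8, 10 and 5 reads against 1, 1 and 1. The 11-exon circRNA of DMC1, a recombinase of meiosis, had 4, 5 and 5 reads and then 0, at least 4.93-fold lower.

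Other falls were spread over unrelated genes. OSBPL10, an oxysterol-binding protein gene, had 13, 14 and 15 reads at day 0 and 0, 0 and 1 at day 90, a 44.4-fold lower level with a 95% counting interval of 7.54 to 1794. WWC2 had 7, 14 and 7 reads against 0, 0 and 1 (29.6-fold lower, interval 4.89 to 1210). Such intervals cover counting error only. The single-exon circRNA of KCNN2, a calcium-activated potassium channel gene, had 42, 26 and 59 reads against 2, 7 and 5 (9.59-fold lower, edgeR adjusted p = 5.09e-07). That of SPECC1 was the most abundant after FIRRE, with 94, 120 and 89 reads against 27, 74 and 39, a 2.29-fold lower level. Forms with no day 90 read were also seen for TEX10 (at least 6.69-fold lower), IARS1 (5.99), GASK1A (4.93), DOCK1 (4.23), KIF11 (3.17) and TSNARE1 (2.47). SNHG14 and CPSF2 circRNAs, at least 3.87-fold and 2.47-fold lower, had a day 0 library with 0 reads and so overlapped with day 90. Of the 41, 35 had a lower mean at untreated day 45 than at day 0 as well, and 27 had every day 90 library with IGF-1 below every day 0 library.

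Back-splice counts were then summed over the circRNAs of each host gene. Of 4933 host genes tested with edgeR, 2237 were higher at day 90 (45.3%) and 31 were lower (0.628%). For the 1126 genes with at least 10 day 0 reads the median log2 change was 1.55, a ratio of 2.92, and 978 (86.9%) lay above 0. Their median was -0.044 with TMM and -0.31 with DESeq2 size factors. With TMM 562 genes were higher and 181 lower (75.6% of calls higher), and with DESeq2 size factors 386 and 236 (62.1%). All 31 lowered genes were lower past the threshold under both, where a call of lower could hardly be lost, for the same reason as in circRNAs. Of the raised genes, 1 with TMM and 6 with DESeq2 size factors were called lower. Without day 90 replicate 1, 2411 genes were higher and 18 lower, and 17 of the 31 lower calls remained. After RMST and ATRNL1, the largest rises among genes with at least 30 day 0 reads and no overlap were of STK39 (log2 change 3.93), RERE (3.91), GON4L (3.81), PHC3 (3.76), RTN4 (3.63), SUCO (3.62), N4BP2L2 (3.58) and ZC3H6 (3.52).

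Of the 31 lowered host genes 7 had no read at day 90 and 24 kept reads. ITGB5, an integrin gene, had 5, 5 and 10 reads at day 0 and 0 at day 90, at least 7.04-fold lower; its day 0 reads came from 6 circRNAs. USP44 had 10, 2 and 7 reads and then 0, at least 6.69-fold lower. GASK1A, DSCC1, EIF4A2, RALA and TENT4A also had no day 90 read, and were at least 4.93-fold, 3.52-fold, 2.47-fold, 2.11-fold and 2.11-fold lower. The exact 95% counting intervals of these falls start lower, at 3.51, 2.37, 1.52, 1.24 and 1.24. EIF4A2, RALA and TENT4A rest on 7, 6 and 6 day 0 reads, and EIF4A2 overlapped with day 90. Outside this comparison, EIF4A2, RALA and TENT4A had 17, 5 and 8 reads at untreated day 45. At day 90 with IGF-1 they had 7, 5 and 5. GRHL2, an epithelial transcription factor gene, had 14, 19 and 20 reads against 0, 0 and 3. CHSY1, a chondroitin synthase gene, had 13, 4 and 17 against 0, 2 and 0. FIRRE kept 58, 158 and 142 reads at day 90 against 471, 591 and 310 at day 0 (log2 change -2.03, SE 0.37, edgeR adjusted p = 6.1e-07). Of the 41 lowered circRNAs, 23 came from a host gene that was also lower, 15 from one that was not called and 1 from one that was higher.

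Lists of marker genes were read against the 45.3% of all host genes called higher and 0.628% called lower on sequenced reads. With TMM these shares were 11.4% and 3.67%, and with DESeq2 size factors 7.82% and 4.78%. Of all host genes tested 1271 had no day 0 read and could not be called lower. Medians are given only over genes with at least 10 day 0 reads, for which that of all host genes was 1.55. In the retinal neuron and photoreceptor list all 11 tested genes were without a day 0 read, and entered the test through reads of later libraries alone. Of these, 10 were called higher, and since none could fall this count is a description and is not set against the share of all host genes. The summed level of the list was 0 in each day 0 library and 0.296 to 0.907 RPM at day 90. EYS, a photoreceptor gene of retinitis pigmentosa, had 5, 38 and 26 reads, at least 21.8-fold higher. CDH23, a cadherin of sensory cells, had 12, 19 and 35 (at least 20.8-fold), and TULP1, a photoreceptor trafficking gene, 10, 12 and 23 (at least 14.2-fold). Those that rose also included PDC, IMPG2, CNGB3, RORB, PROX1 and CRB1, while ABCA4 did not pass. With either TMM or DESeq2 size factors 4 of the 11 were called. CRX and RCVRN were among the 29 genes of this list with no back-splice read, which says nothing of their linear transcripts.

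Eye field and retinal progenitor genes with enough reads were DACH1 and MEIS1, both without a day 0 read and both called higher on sequenced reads. DACH1 had 0 reads at day 0 and 10, 37 and 35 at day 90, at least 25.9-fold higher, and MEIS1 had 2, 3 and 6, at least 3.47-fold higher. DACH1 kept its call under both scalings, while MEIS1 lost it with TMM (edgeR adjusted p = 0.162) and with DESeq2 size factors (0.216). PAX6, RAX and SIX6 had no back-splice read. In the retinal pigment epithelium list 2 of 5 tested genes rose (OCA2 and DCT, both of pigment formation), none of them with TMM or DESeq2 size factors, and RPE65 and MITF were at 0. Of the 5 tested genes 4 had no day 0 read, both raised ones among them, and could not be called lower. DCT had 1, 0 and 9 reads at day 90 and overlapped with day 0. In the neuronal list 14 of 26 rose and none fell, of which 11 tested and 5 raised genes had no day 0 read. RIMS1, a synaptic release gene, had 0, 2 and 0 reads at day 0 and 25, 72 and 61 at day 90. RIMS2 had 24, 21 and 17 against 33, 98 and 78, a log2 change of 1.66 that was -0.24 with DESeq2 size factors. With TMM 5 of the 26 neuronal genes were past the threshold and with DESeq2 size factors 3, all higher, where the shares of all host genes were 11.4% and 7.82%.

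Pluripotency genes gave few circRNAs. POU5F1, NANOG and SOX2 had no back-splice read, so the identity of the day 0 cells rests on their labels here. Of 6 tested genes 1 rose and 1 fell, and the median log2 change of the 5 with at least 10 day 0 reads was -1.33. The summed level of the list was 0.307 to 0.401 RPM at day 0 and 0.455 to 0.844 RPM at day 90. TET1, a DNA demethylation gene, had 25, 27 and 15 reads against 50, 106 and 106, a log2 change of 1.87 that was -0.02 with DESeq2 size factors, and USP44 fell. With TMM and with DESeq2 size factors 0 of the 6 were higher and 3 lower. The direction of the cell division and DNA replication list depended on the scaling in the same way. Of 44 tested genes 6 rose and none fell, and the 19 with at least 10 day 0 reads had a median log2 change of -0.09 against 1.55 for all such host genes. TMM gave 0 higher and 8 lower, where 3.67% of all host genes were lower, and DESeq2 size factors 0 higher and 13 lower, where 4.78% were. DNA2, a replication nuclease gene, had 38, 34 and 60 reads against 25, 53 and 41 and did not pass on sequenced reads. FANCL had a log2 change of 1.34 on sequenced reads, -0.26 with TMM and -0.52 with DESeq2 size factors.

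Genes that encode circRNA biogenesis factors had 6 of 12 higher and none lower on sequenced reads, and 1 of 12 higher with TMM and with DESeq2 size factors, so 5 of the 6 calls were lost under both. QKI, an RNA-binding protein that promotes circularisation, had 6, 6 and 7 reads against 41, 67 and 71 (log2 change 3.13, 1.55 with TMM, 1.29 with DESeq2 size factors) and was the gene that passed under both. HNRNPM, a splicing factor gene, and ADARB1, an RNA editing enzyme gene, had log2 changes of 1.95 and 2.32 that were 0.32 and 0.76 with TMM (edgeR adjusted p = 0.515 and 0.175). Markers of other tissues were sparse. On sequenced reads, higher genes numbered 1 of 1 in the lens list (PROX1, also in the retinal list) and 2 of 4 in mesenchyme and neural crest (FBN2 and COL5A1). They numbered 0 of 3 in muscle, 1 of 3 in forebrain and cortex and 0 of 2 in glia. None of these lists held a lower gene on sequenced reads, while 1 muscle gene was lower with TMM and with DESeq2 size factors. No gene of these lists was called higher under either of those scalings. PROX1, FBN2 and COL5A1 had no day 0 read and could not be called lower. PROX1 had 0, 6 and 1 reads at day 90 and overlapped with day 0 (edgeR adjusted p = 0.04996). No endoderm and liver gene had a read, and the endothelium and blood list had reads of 4 genes, too few to test. Of 7 tested hosts that the study names, RMST, SMARCA5, BIRC6 and QKI were higher and FIRRE lower on sequenced reads. The study singled out RMST and FIRRE on these same samples, so they are not independent evidence. SMARCA5 lost its call with TMM and with DESeq2 size factors (edgeR adjusted p = 0.0634 and 0.418), and BIRC6 with DESeq2 size factors (0.249).

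**Figure D3:**
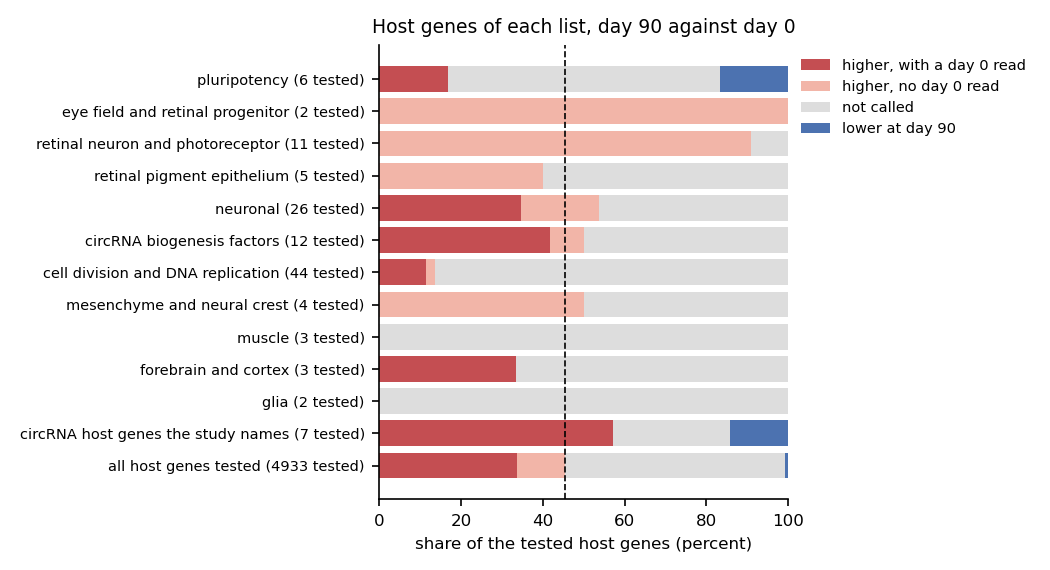
Share of the tested host genes of each list, in percent, that edgeR called higher with a day 0 read (red), higher without one (pale red), lower (blue) or neither (grey) at day 90, with the dashed line at the 45.3% called higher among all 4933 tested. The bar of retinal neuron and photoreceptor genes has no dark red, since none of them had a day 0 read, the bar of cell division genes ends below the line (6 of 44), and lists with few tested genes move in large steps.

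Within a host gene the share of each circRNA was tested against the other circRNAs of the gene, a comparison in which the general rise cancels. Of 10563 circRNAs in 2396 genes, 0 (0%) had a higher share and 1 (0.00947%) a lower share by edgeR, and 418 had an unadjusted p under 0.05. With TMM or DESeq2 size factors 6 were called. The call was lost when day 0 replicate 1 or 2, or day 90 replicate 1 or 3, was left out. It was the 3-exon circRNA of TDRD3, a Tudor domain gene, and the 4-exon circRNA that shares its acceptor is shown beside it.
TDRD3 exon 4 to exon 2, chr13:61013822-61034674, plus strand: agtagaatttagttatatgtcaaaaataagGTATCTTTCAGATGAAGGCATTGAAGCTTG
TDRD3 exon 5 to exon 2, chr13:61013822-61041513, plus strand: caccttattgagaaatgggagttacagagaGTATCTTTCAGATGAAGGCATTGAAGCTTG
The 3-exon form had 9, 7 and 3 reads at day 0 and 2, 6 and 1 at day 90, 54.3% and 3.40% of the reads of the gene (edgeR adjusted p = 0.0064). The 4-exon form had 4, 2 and 6 reads against 44, 70 and 86, or 34.3% and 75.5%.

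The other 5 calls made under TMM and DESeq2 size factors were 2 of DOCK1 and 1 each of ATXN10, RAB6A and MAN1A2. DOCK1, which encodes a guanine nucleotide exchange factor for Rac, makes circRNAs of different lengths from the acceptor of exon 2.
DOCK1 exon 27 to exon 2, chr10:128768966-128926028, plus strand: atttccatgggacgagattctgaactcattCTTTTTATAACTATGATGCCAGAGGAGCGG
DOCK1 exon 10 to exon 2, chr10:128768966-128798571, plus strand: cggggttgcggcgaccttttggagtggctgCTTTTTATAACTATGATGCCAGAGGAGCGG
The 26-exon form had 31, 34 and 21 reads at day 0 and 4, 0 and 3 at day 90, a 13-fold lower level (log2 change -3.63, SE 0.67, edgeR adjusted p = 2.33e-06). The 9-exon form had 4, 3 and 2 reads against 12, 12 and 12, a ratio of 3.79 (edgeR adjusted p = 0.0245). Levels of both forms passed the test, in opposite directions, while the total of the gene went from 68, 67 and 60 to 32, 41 and 43 reads and did not (edgeR adjusted p = 0.0723). Their shares were 44.1% and 4.62% at day 0 and 6.03% and 31.0% at day 90. On sequenced reads all 5 of these shares had an edgeR adjusted p of 0.108 and did not pass. Their log2 differences hardly moved with the scaling: that of MAN1A2 was -1.82 on sequenced reads, -1.84 with TMM and -1.85 with DESeq2 size factors. The common dispersion, the spread that edgeR fits between replicates, was 0.179, 0.108 and 0.106 in that order.

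MAN1A2 circRNAs also share the acceptor of exon 2 and differ in the donor.
MAN1A2 exon 3 to exon 2, chr1:117944808-117948267, plus strand: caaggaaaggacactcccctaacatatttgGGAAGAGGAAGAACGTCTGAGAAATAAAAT
MAN1A2 exon 5 to exon 2, chr1:117944808-117963271, plus strand: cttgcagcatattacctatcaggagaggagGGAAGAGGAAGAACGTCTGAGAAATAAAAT
The ratio of day 90 to day 0 was 2.92 for the 2-exon form, 10.1 for the 3-exon form, 13.6 for the 4-exon form and 17.5 for the 5-exon form. The 2-exon form made up 27.5% of MAN1A2 reads at day 0 and 7.84% at day 90, and its level had a log2 change of 1.51 that was -0.26 with DESeq2 size factors. RAB6A, a Golgi traffic GTPase gene, has a pair of alternative versions of an exon, and both are seen as acceptors joined to the same donor.
RAB6A first form, chr11:73418465-73429935, minus strand: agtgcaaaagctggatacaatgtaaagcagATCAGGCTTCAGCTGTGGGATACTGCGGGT
RAB6A second form, chr11:73418465-73429763, minus strand: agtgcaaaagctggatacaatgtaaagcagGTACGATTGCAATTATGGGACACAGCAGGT
The first form had 11, 3 and 10 reads at day 0 and 4, 6 and 21 at day 90, or 31.6% and 5.34% of the reads of the gene. The second had 3, 10 and 5 reads against 57, 98 and 134, or 23.7% and 49.7%. ATXN10 had a 5-exon form with 15, 3 and 17 reads against 5, 6 and 14, while its circRNA from exon 8 to exon 6 had 8, 7 and 18 against 67, 90 and 138.

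SUCO and IARS1 had forms found almost wholly at one of the compared days, although their shares did not pass the test.
SUCO exon 9 to exon 3, chr1:172520652-172539870, plus strand: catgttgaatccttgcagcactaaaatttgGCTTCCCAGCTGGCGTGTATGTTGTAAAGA
IARS1 exon 20 to exon 13, chr9:95018962-95032265, minus strand: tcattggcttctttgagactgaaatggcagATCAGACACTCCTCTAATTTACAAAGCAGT
IARS1 exon 20 to exon 6, chr9:95018962-95048121, minus strand: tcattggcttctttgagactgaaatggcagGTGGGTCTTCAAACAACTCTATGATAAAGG
The 7-exon SUCO circRNA had 1, 0 and 0 reads at day 0 and 117, 91 and 103 at day 90, a ratio of 294 with a counting interval that starts at 52.4. Outside this comparison, it had 803 reads in the untreated day 45 libraries. It made up 2.70% of SUCO reads at day 0 and 63.9% at day 90. IARS1, the cytosolic isoleucine tRNA synthetase gene, had an 8-exon form with 6, 3 and 8 reads at day 0 and 0 at day 90, and a 15-exon form with 0 at day 0 and 5, 3 and 5 at day 90. At untreated day 45 they had 5 and 33 reads. Both levels passed the edgeR test (adjusted p = 0.00271 and 0.00375), while the total of the gene did not (30 reads against 20). The remaining circRNAs with the smallest p for a share came from SCAF8 and TRPC1. The 2-exon circRNA of SCAF8 had 2, 3 and 2 reads at day 0 and 0, 1 and 0 at day 90, and the 8-exon circRNA of TRPC1 had 0 at day 0 and 8, 20 and 19 at day 90.

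**Figure D4:**
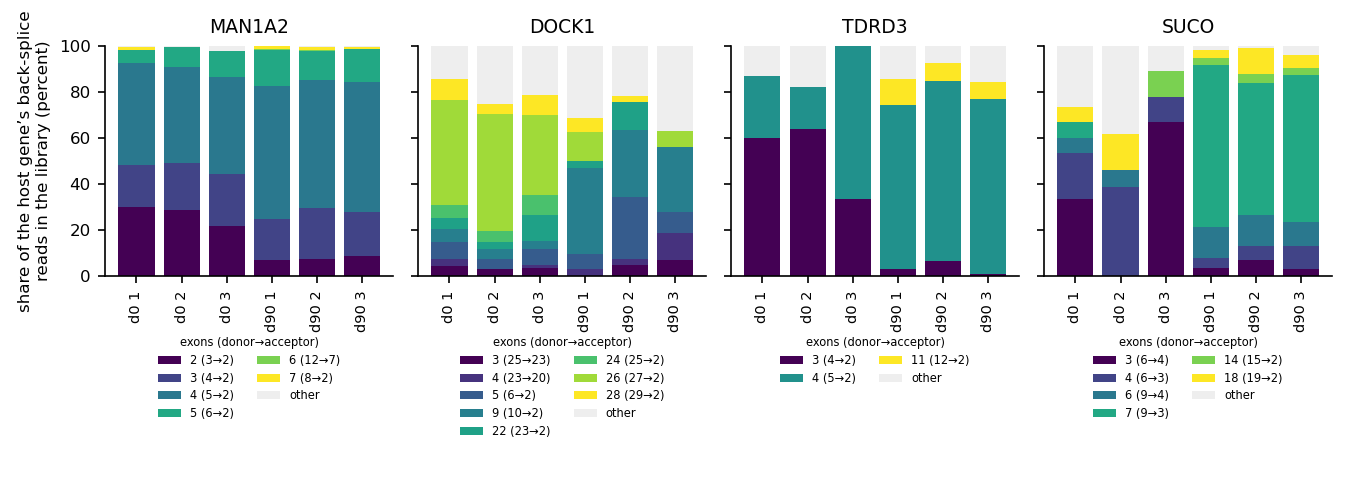
Share of the back-splice reads of MAN1A2, DOCK1, TDRD3 and SUCO, in percent, taken by each circRNA in each day 0 (d0) and untreated day 90 (d90) library, with colours giving the number of exons and the donor and acceptor exons. The 26-exon DOCK1 and 3-exon TDRD3 forms take smaller parts of the bars at day 90 than at day 0, and the 7-exon SUCO form takes most of each day 90 bar.

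Structure was compared in the libraries and between the called circRNAs. The median genomic span of the circRNAs of a library was 7967 ± 610 bases at day 0 and 8882 ± 200 at day 90 (SD, n = 3 each; exact permutation p = 0.1, adjusted 0.2). Counting only circRNAs with at least 2 reads the groups overlapped (exact permutation p = 0.3). The mean number of exons was 4.29 ± 0.189 and 4.46 ± 0.0848 (n = 3 each; exact permutation p = 0.2, adjusted 0.267). Single-exon circRNAs took 9.90 ± 0.314% of reads at day 0 and 7.03 ± 0.517% at day 90, without overlap (n = 3 each; exact permutation p = 0.1, adjusted 0.2). None of these passed a threshold of 0.05, which 3 libraries against 3 cannot reach.

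As a description of the calls, 8 of the 41 lowered circRNAs (19.5%) had a single exon, against 5.82% of the raised and 5.12% of the tested ones. The acceptor was exon 2 in 22 of the 41 (53.7%), in 32.0% of the raised and in 28.3% of the tested. The median spliced length was 692 bases for lowered, 421 for raised and 437.5 for tested circRNAs, where an exon model allowed it. Median introns upstream of the acceptor were 10514, 9992 and 7533 bases, and downstream of the donor 15119, 8191 and 6441 bases, in that order. The lowered circRNAs had a median of 26 reads, the raised 22 and the tested 6, so the groups differ in depth as well.

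The share of reads from non-coding genes was 3.69 ± 1.11% at day 0 and 2.69 ± 0.846% at day 90 (n = 3 each; exact permutation p = 0.3, adjusted 0.343). Without RMST and FIRRE it was 0.562% and 0.496%. Of 69 non-coding host genes tested 25 were higher (36.2%) and 2 lower, FIRRE and SNHG12. The X chromosome held 4.61 ± 1.32% of reads at day 0 and 1.78 ± 0.125% at day 90, and without FIRRE 1.73 ± 0.272% and 1.61 ± 0.0914% (SD, n = 3 each). The 10 most abundant circRNAs of a library took 7.84 ± 1.47% of reads at day 0 and 8.08 ± 0.606% at day 90 (n = 3 each; exact permutation p = 0.9, adjusted 0.9).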

How the data were processed

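Total RNA was depleted of ribosomal RNA and sequenced as paired 100 base reads. The authors identified back-splice junctions with PTESFinder on hg19 and deposited raw counts of back-splice reads for each circRNA in each library, neither normalised nor pooled. The submitters' notes also name TopHat2 2.0.10, HTSeq 0.6.1, bedtools 2.17, FastQC 0.10, Picard and CASAVA. Numbers of sequenced reads came from a supplementary file of the study. The FIRRE amplicon samples were not used here.

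Host genes were assigned with GENCODE 44 on GRCh37: 48401 of 55371 circRNAs by their transcript and 6744 by exon ends, while 187 matched several genes and 39 none and were left out of gene sums. RPM is back-splice reads per 1000000 sequenced reads. Differential expression was tested with edgeR 4.0.16 in R 4.3.3 (glmQLFit, glmQLFTest and, within genes, diffSpliceDGE) with 1 mean for each of the 5 groups fitted jointly to the 15 libraries, sequenced reads as library sizes and no TMM factors, on features with at least 10 counts, adjusted by Benjamini-Hochberg at 0.05. Library values were compared by two-sided exact permutation tests in Python 3.11.15 (numpy 2.4.6, scipy 1.17.1, pandas 2.3.3). Values at equal reads are hypergeometric expectations. A fold against a group without reads is set against 3 counts over that group, and leaves out the counting error of the group with reads. Intervals are 95%. The scripts were tested on simulated data.

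Alternatives were TMM, DESeq2 1.42.0 size factors and Wald test, other filters and read numbers, a Q30 term, Fisher's test on summed counts, the 6 libraries alone, a replicate block, and each replicate left out. Members and gene lists were chosen with earlier results of these data known. CircRNAs named were the 10 with the most reads, the 10 with the largest rise, the 10 most abundant without a day 0 read, the 15 with the largest fall, the 10 with the smallest p for a changed share, and those of RMST and FIRRE. Host genes named were the 10 with the largest rise, the 10 with the largest fall, and up to 4 of each list by reads. Others were named after their values were seen. Some genes that met these rules are not reported here.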

Additional observations from a re-analysis of the deposited data

How the results depend on the processing

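The scaling decided how many features were called: 2754 circRNAs on sequenced reads against 869 with TMM and 554 with DESeq2 size factors, 2268 host genes against 743 and 622, and 1 changed share against 6 and 6. With no filter 1662 circRNAs were called, and with at least 50 counts 5 shares. The share of the 10 most abundant circRNAs differed by 0.237 percentage points, and by -1.41 for the 100 most abundant. DESeq2 size factors turned the log2 change of the CAMSAP1 circRNA to -0.30, the 2-exon MAN1A2 circRNA to -0.26, and the host genes TET1 to -0.016, RIMS2 to -0.24, FANCL to -0.52 and ATAD2 to -1.68, and TMM turned FANCL to -0.26 and ATAD2 to -1.42. Leaving out each replicate gave differences of 304 to 454 RPM, 7314 to 10406 distinct circRNAs, 339 to 550 at equal reads, 567 to 1136 bases of span, 0.0543 to 0.222 exons, -3.15 to -2.65 points of single-exon share, -1.62 to -0.534 of non-coding share and -0.552 to 0.908 of the top 10 share. It gave 1703 to 3131 circRNAs, 1687 to 2429 host genes and 0 to 1 shares. The cause of these changes was not tested. With the replicate number as a block 2450 circRNAs, 2145 host genes and 1 share were called. Deviations of libraries with the same number correlated at 0.0072 to 0.0369. Most tested circRNAs had few day 0 counts, and counting error would keep these values low in paired samples too. Whether the numbers pair the samples therefore cannot be told. Of 113 alternatives to the summary values 96 kept the direction of a library value or a similar count of calls. The size of library values was not compared. The difference in exon number, for one, was 0.163 as reported and 0.0097 when weighted by reads. Of 3194 alternatives for single named items 2768 kept their direction and side of the threshold. Depth at day 0 limits folds, since 11032 tested circRNAs reached no more than 3 counts in any day 0 library.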
